A study of Mus musculus with 3 samples.

Results

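The enzyme-rich acinar-like cells were cells of 3 mouse pancreatic tumours in which digestive enzymes made up a large part of the RNA. They were chosen by measured values of 13 genes: a cell belonged to them when 10 acinar enzyme genes (Ctrb1, Clps, Pnliprp1, Cpa1, Prss2, Try4, Try5, Cel, Cela2a and Cela3b) together made up 5% or more of its UMIs and the foregut epithelial genes Tff1, Tff2 and Lgals4 together less than 0.3%. A UMI (unique molecular identifier) marks 1 captured RNA molecule. Of 2148 cells that passed the filters, 109 met this gate: 31 of 957 in tumour 1 (3.24%, exact 95% binomial interval 2.21 to 4.57), 0 of 194 in tumour 2 (which allows a share of up to 1.55%) and 78 of 997 in tumour 3 (7.82%, interval 6.23 to 9.67). The 3 shares averaged 3.69% ± 3.93 (SD, n = 3), and intervals and limits cover counting error only. Their members therefore come from 2 tumours, and each comparison below rests on those.

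All 3 tumours carry the same genotype, Msi2-Myc; R26-LSL-tdTomato, and the same treatment. In the donors, tamoxifen activates a CreER expressed from the Musashi2 gene, which turns on MYC (MycT58A in the series title) and a red reporter. Reporter-positive epithelial cells were sorted 5 weeks later and placed in the pancreas of NSG mice, which lack most immune cells, and EpCAM+ cells of the resulting end-stage tumours entered droplet-based 3' sequencing. The recipients have a normal pancreas of their own, and the EpCAM sort does not separate its epithelium from the graft. The series asks whether uncommitted pre-cancer cells give rise to several tumour subtypes, and its title names ASCP (adenosquamous), PDAC (ductal) and ACC (acinar cell) tumours, but no tumour is assigned to one of them in the labels.

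Acinar cells of the pancreas make digestive enzymes as inactive precursors, store them in zymogen granules and release them into the ducts. The transcription factor PTF1A, with RBPJL and an E protein, switches the enzyme genes on together, and NR5A2, MIST1 (Bhlha15) and GATA4 help to keep the cells differentiated. Acinar cells that leave this state lose enzymes and gain ductal genes such as Krt19 and Sox9, whereas acinar cell carcinomas go on making enzymes such as trypsin and chymotrypsin while they divide.

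The comparison classes were cut with the same 13 genes. Moderate-enzyme cells (191, 22 and 313 in tumours 1, 2 and 3) held 1% to under 5% of their UMIs in the 10 enzymes and less than 0.3% in the foregut genes. Foregut-gene cells (229, 47 and 153) held 1% or more in the foregut genes and under 1% in the enzymes. The other 506, 125 and 453 cells met none of these gates. The libraries held 11502184, 9737397 and 16521484 UMIs in all.

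Several properties of the libraries touch every result. Each of the 109 members' barcodes also had 10 or more UMIs in both other libraries. A barcode was therefore counted in the library with 60% or more of its UMIs, and the members' home library held a median of 74.0% of them in tumour 1 and 78.7% in tumour 3. No barcode was a member in both tumours. Without this home-library requirement 37, 11 and 79 barcodes met the gate, and of the 11 in tumour 2, 9 had most of their UMIs in library 3 and 2 in library 1. A limit of 10% on the UMIs of 3 ribosomal RNA locus genes (Gm42418, AY036118 and Gm26917) took tumour 3 from 2590 to 997 cells, and 6 of the barcodes it removed there met the gate; without it members were 3.24% of the cells of tumour 3 and not 7.82%.

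By median UMIs, members were shallower than moderate-enzyme cells in tumour 3 and not in tumour 1. They had a median of 1794 UMIs and 820 genes in tumour 1 and of 1737.5 UMIs and 783.5 genes in tumour 3, against 1695 UMIs and 900 genes, and 2137 UMIs and 1005 genes, in moderate-enzyme cells of the same tumours. Mitochondrial genes took a median of 2.60% and 2.82% of their UMIs. The scrublet doublet caller marked 8, 17 and 9 of 1012, 204 and 1209 scored cells, and no member was among the marked cells or among the 5% with the highest scores.

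The gate enzymes describe how the cells were chosen and are given without a test. Together they took 7.89% of the members' summed UMIs in tumour 1 and 7.85% in tumour 3, with single cells reaching 22.8% and 29.8%. Moderate-enzyme cells held 2.57%, 2.56% and 2.56% in the 3 tumours, foregut-gene cells 0.020%, 0.038% and 0.076%, and barcodes of 10 to 100 UMIs, taken here as free RNA, 0.625%, 0.502% and 0.831%. The members thus lay well above the free RNA, and foregut-gene cells below it. Barcodes that were cells in another library were not left out of the free RNA, so it may hold some RNA of cells. Around the threshold the classes were continuous: 21, 4 and 37 cells had 4% to under 5% (medians 4.39%, 4.48% and 4.38%), and 10, 0 and 27 had 5% to under 6% (medians 5.34% and 5.27% in tumours 1 and 3). A further 4, 0 and 13 cells reached 5% but held 0.3% or more of foregut genes and were not counted as members.

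Chymotrypsinogen led the enzymes. Ctrb1, which encodes it, made up 3.42% of the members' UMIs in tumour 1 and 3.31% in tumour 3. It was the leading enzyme in 30 of 31 and 75 of 78 members and was detected in all of them. Among the trypsinogens Prss2 held 1.02% and 1.09%, Try5 0.695% and 0.397%, and Try4 0.446% and 0.399%. One cell supplied 44.4% of the Try5 UMIs of tumour 1. Of the lipid-digesting enzymes, the lipase-related Pnliprp1 stood at 0.763% and 0.889%, the lipase cofactor colipase (Clps) at 0.603% and 0.659%, and carboxyl ester lipase (Cel) at 0.299% and 0.399%. Carboxypeptidase A1 (Cpa1), which trims peptides from their carboxyl end, held 0.304% and 0.435%, and the elastases Cela3b and Cela2a held 0.184% and 0.129%, and 0.149% and 0.143%. UMIs count 1 tag per molecule, so these shares are not scaled to gene length. Ctrb1 exceeded the other 9 genes in both tumours, and the order below it differed between the tumours for several neighbours, such as Try5, which stood above Clps in tumour 1 and below it in tumour 3.

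**Figure D1:**
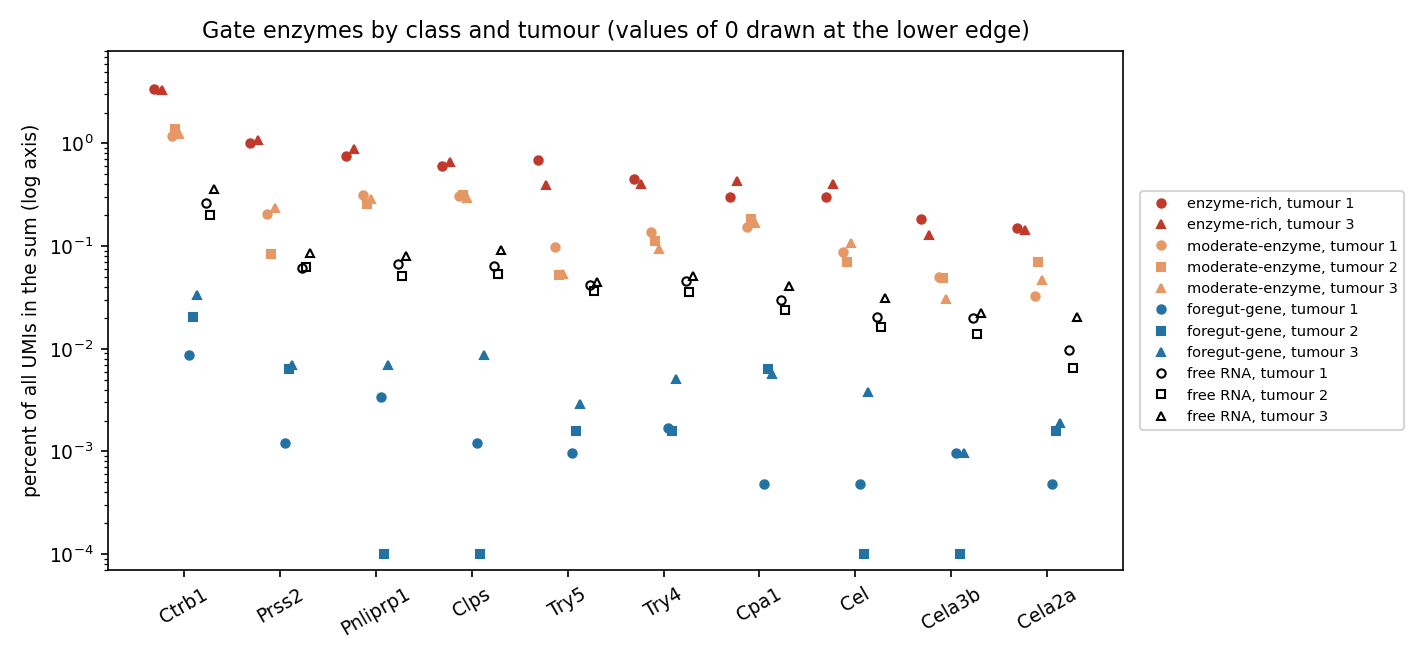
Share of all UMIs (percent, log axis) held by each of the 10 gate enzymes in enzyme-rich, moderate-enzyme and foregut-gene cells and in free RNA, with 1 point per tumour and values of 0 at the lower edge. Members of tumours 1 and 3 lie above the other groups for each gene, with Ctrb1 the highest at 3.42% and 3.31%; the gate used these values.

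The members differed among themselves in how much of their enzyme RNA was trypsinogen. Prss2, Try4 and Try5 made up a median of 22.8% of a cell's enzyme UMIs in both tumours, with a range of 13.5% to 47.3% over 31 cells in tumour 1 and 2.9% to 62.1% over 78 cells in tumour 3. Pooled over members the share was 27.4% and 24.0%, and over moderate-enzyme cells 17.2%, 9.6% and 15.0%. In free RNA of tumours 1, 2 and 3 Prss2 held 9.8%, 12.5% and 10.4% of the enzyme UMIs. Try4 held 7.2%, 7.1% and 6.2% there, and Try5 6.6%, 7.2% and 5.4%. Each lay above the moderate-enzyme share of the same tumour, so a higher trypsinogen share was not particular to members. After each cell was thinned to 1000 UMIs, Spearman's rho between the 3 trypsinogens and the other 7 gate enzymes was 0.380 over the 31 cells and 0.270 over the 78. By single gene it was 0.409 and 0.311 with Ctrb1 and 0.011 and -0.076 with Clps. These values share a library and a thinned depth and were used to choose the cells, so they describe the members only.

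**Figure D2:**
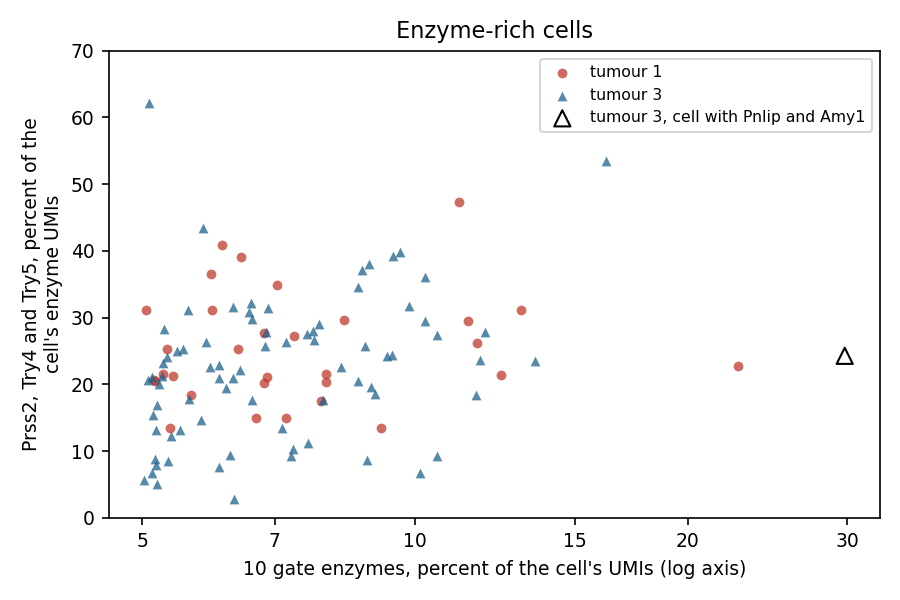
Each of the 109 members by its enzyme share of all UMIs (percent, log x axis) and the trypsinogen share of its enzyme UMIs (percent, y axis), by tumour. Members reach from the threshold of 5% upward, with medians of 6.82% and 6.61%; the marked cell of tumour 3 at 29.8% is the 1 with most of the Pnlip and Amy1 UMIs.

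Promoters of the gate enzymes were searched for the letters that the PTF1 complex is known for, and those of the leading gene, of the leading trypsinogen and of the richest in E-boxes are shown. The complex reads an E-box, here searched as CACCTG, and a nearby TC-box, here searched as TTTCCC, both on either strand; the matches in the sequences shown do not overlap. Each sequence is the 250 bases before the start of the gene (RefSeq, GRCm38.p6), 5′ to 3′ on the gene's strand, with matches in capitals (CAGGTG and GGGAAA are the same letters on the opposite strand). Ctrb1 is at chr8:111691011-111691260 (minus strand), Prss2 at chr6:41521526-41521775 (plus strand) and Cel at chr2:28563404-28563653 (minus strand).
Ctrb1: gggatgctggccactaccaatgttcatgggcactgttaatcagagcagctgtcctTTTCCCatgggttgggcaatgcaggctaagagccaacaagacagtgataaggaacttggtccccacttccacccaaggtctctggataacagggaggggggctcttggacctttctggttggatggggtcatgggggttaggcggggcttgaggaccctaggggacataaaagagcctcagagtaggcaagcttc
Prss2: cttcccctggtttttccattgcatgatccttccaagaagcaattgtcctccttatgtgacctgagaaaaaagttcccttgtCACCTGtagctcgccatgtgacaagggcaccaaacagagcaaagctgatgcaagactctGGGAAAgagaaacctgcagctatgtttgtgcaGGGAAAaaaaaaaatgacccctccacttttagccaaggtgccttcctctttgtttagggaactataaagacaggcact
Cel: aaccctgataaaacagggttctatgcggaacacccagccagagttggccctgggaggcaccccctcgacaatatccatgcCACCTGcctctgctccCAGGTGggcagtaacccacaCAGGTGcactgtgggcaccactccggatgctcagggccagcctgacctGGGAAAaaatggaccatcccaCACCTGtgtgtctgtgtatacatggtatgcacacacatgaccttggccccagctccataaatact

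In the Ctrb1 promoter TTTCCC began 195 bases before the start, with no CACCTG in the window. Prss2 had CACCTG at 169 bases and TTTCCC, on the opposite strand, at 110 and 78 bases before the start. Cel had CACCTG at 170, 154, 134 and 65 bases and TTTCCC at 86 bases before the start. Promoters of 8 of the 10 gate enzymes were matched by symbol (not Clps and Try5). CACCTG stood in 5 of the 8 (Cel, Cela2a, Cela3b, Prss2 and Try4), against 17.2% of all 32851 promoters of this length. TTTCCC stood in 5 of the 8 (Cel, Cela2a, Cpa1, Ctrb1 and Prss2), against 21.9%, and both in 3 of the 8 (Cel, Cela2a and Prss2), against 3.61%. Ctrb1 and Cpa1 held TTTCCC alone, and Pnliprp1 held neither. AAGGTCA, the letters read by NR5A2, stood in 1 of the 8 (Cel), against 4.08%. These matches are letters in a window and were not tested as binding sites.

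One cell stood apart from the rest. In tumour 3, 1 member of 3495 UMIs and 642 genes held 172 of the members' 174 Pnlip UMIs, 102 of 103 Amy1 UMIs, all 32 of Zg16 and all 35 of Ctrc; these encode pancreatic lipase, an amylase, a granule membrane lectin and chymotrypsin C. It also held 196 of 380 Cpb1 UMIs, 144 of 207 Cela1 UMIs and 77 of 120 Ctrl UMIs, and 56 of Rnase1. It had 0 UMIs of the trypsinogens Prss1, Prss3 and Gm10334, and 0 of Epcam, Krt18, Krt19, Clu, Mki67 and Top2a, with 1 of Krt8. Its mitochondrial share was 0.544%, and its home library held 81.3% of its barcode's UMIs.

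In the other members lipase and amylase were near absent. Pnlip had 0 UMIs in the 31 members of tumour 1 and 2 UMIs (13.9 CPM) in the other 77 of tumour 3; CPM stands for UMIs per 1000000 UMIs outside the 13 gate genes. Amy1 had 1 UMI in each tumour (17.6 and 6.95 CPM). Free RNA held more: 58.7, 95.6 and 82.8 CPM of Pnlip and 29.0, 31.6 and 54.6 CPM of Amy1 in the 3 libraries. Apart from that cell, the members were thus rich in chymotrypsinogen, trypsinogen, colipase and Pnliprp1. Their lipase and amylase levels were lower than those of free RNA, on 2 UMIs or fewer per gene and tumour. No other classified cell had 10 or more UMIs of Pnlip and Amy1 together, and the most in any was 3. Among unclassified barcodes 3 in library 2 and 10 in library 3 did. Genes for which the lone cell changes the value or the call are given with and without it, as a choice made after it was seen.

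Genes outside the gate were then compared between classes, on UMIs summed per tumour and class, with edgeR's quasi-likelihood test, in which each tumour formed a block; p-values were adjusted by Benjamini and Hochberg's method and read at 0.05. A tumour is a sample here, and members form sums in tumours 1 and 3 only. The test therefore takes the spread from all classes together, in part shared across genes. The spread of the members' own difference over tumours is barely measured, and very small adjusted p-values do not reflect it. The test covered 5683 genes in 11 sums. Where all member values are said here or below to lie apart from those of another class, few values stand on each side. That describes the values and adds no support to the test, and the share of all tested genes for which it holds was not counted.

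Against moderate-enzyme cells the enzyme-rich cells had more RNA of all 9 other digestive enzymes tested, of 6 of 15 zymogen granule genes and of 3 of 6 Reg genes, and less of 2 of 43 G2/M genes. None of the tested acinar or ductal transcription factors passed. Of the 5683 genes 67 passed (1.18%), 51 higher (0.897%) and 16 lower (0.282%), and the median log2 difference over all genes was -0.03. Over all 5683 genes 2712 differences lay above 0 and 2971 below. Sign counts given below for lists were not tested. Without the tumour block 20 passed, all higher. Leaving out tumour 1, with its 31 members, or tumour 3, with its 78, leaves a single enzyme-rich sum. Fewer genes passed in either fit, and not all of them were among the 67. In simulated sums of the same size the test found 16 of 100 genes changed by 1 on the log2 scale and 65 of 100 changed by 2, so genes that did not pass may still differ.

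Other digestive enzymes were higher as a group. Of 19 listed, 9 had enough UMIs to be tested, and each of the 9 passed as higher, with a median log2 difference of 2.76. Enough UMIs came in part from the class where they are high, so the count describes these 9 and not the other 10, which include Pnlip, Amy1 and Ctrc. Carboxypeptidase B1 (Cpb1, chr3:20248264-20275733) stood at 1247 and 2595 CPM in members of tumours 1 and 3 and at 252, 249.7 and 177 CPM in moderate-enzyme cells of tumours 1, 2 and 3. Both member values lay above all 3 others, with a log2 difference of 3.33 (SE 0.175, adjusted p = 5.44e-59). Cpb1 did not pass with DESeq2, another test for summed counts. Without the lone cell the member value of tumour 3 was 1278 CPM and the difference 2.66.

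The elastase Cela1 was at 439 and 1414 CPM in members and at 210, 214 and 170 CPM in moderate-enzyme cells (log2 difference 2.56), and at 438 CPM in tumour 3 without the lone cell (1.30). Chymotrypsin-like Ctrl was at 263 and 820 CPM against 86.8, 0 and 36.0 CPM (3.56), and at 299 CPM without it (2.50). The pancreatic ribonuclease Rnase1 was at 703 and 1270 CPM against 207, 107 and 324 CPM (1.98, and 1.62 without the cell). These 3 passed with and without the cell, whereas Pnliprp2, at 87.8 and 307 CPM against 39.2, 35.7 and 58.1 CPM, had a difference of 2.21 with it and 1.21 (adjusted p = 0.253) without it. The lone cell thus set the size of several of these differences in tumour 3 and the call of Pnliprp2. Ctrl did not pass without tumour 3.

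Trypsinogens outside the gate followed the same direction. Prss3 stood at 1124 and 799 CPM in members against 92.4, 35.7 and 47.0 CPM in moderate-enzyme cells (3.90, SE 0.243, adjusted p = 8.34e-45), with 50.0% of the UMIs of tumour 1 in 1 cell. Gm10334 stood at 720 and 1509 CPM against 81.2, 0 and 58.1 CPM (4.27), Prss1 at 334 and 280.0 CPM against 53.2, 0 and 13.8 CPM (3.57), Gm5771 at 439 and 328 CPM against 47.6, 0 and 23.5 CPM (3.58) and Try10 at 334 and 178 CPM against 58.8, 35.7 and 23.5 CPM (2.76). For each of these genes both member values lay above all 3 moderate-enzyme values, though Prss1 did not pass without tumour 3. They are not independent of the gate, which holds Prss2, Try4 and Try5. The annotated transcripts of 10 trypsinogen genes were identical at a median of 81.7% of bases over 45 pairs, and at up to 97.1% (Try4 with Try5). Over the last 300 bases, nearer to what 3' libraries read, the median was 69.7%, with 96.3% for Try4 with Try5, 93.3% for Prss1 with Gm10334 and 62.7% for Prss3 with Gm10334. Reads of the closest pairs may be split among them, so the value of a single trypsinogen is uncertain.

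**Figure D3:**
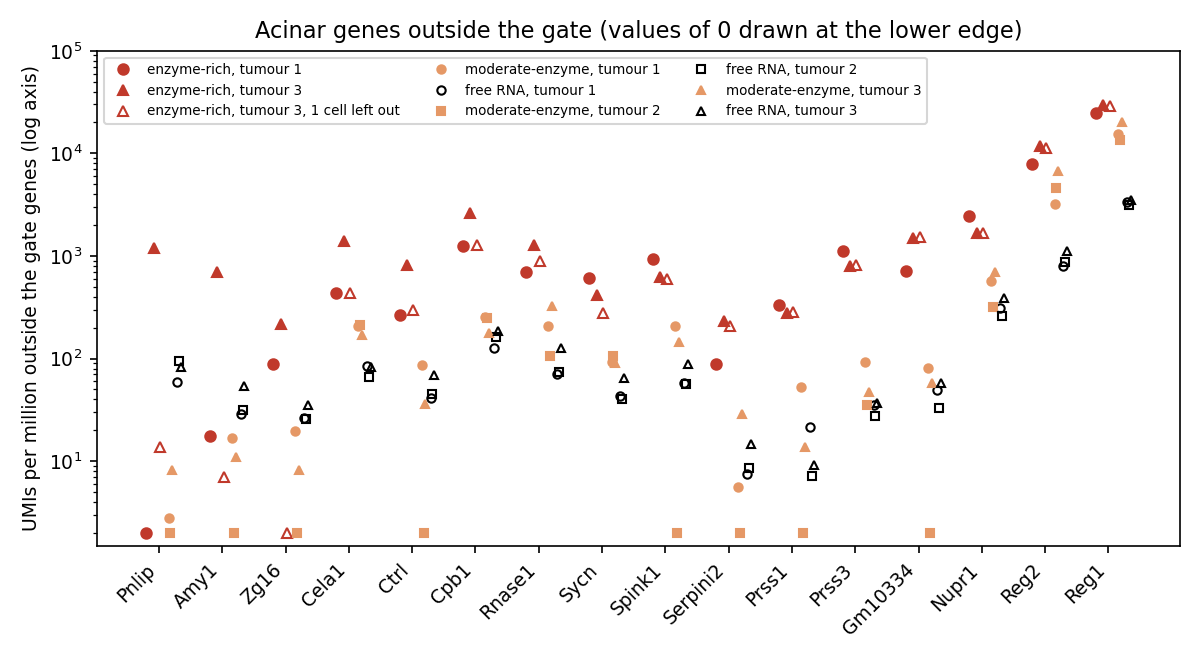
Levels (CPM, log axis) of acinar and secretory genes outside the gate in enzyme-rich cells, moderate-enzyme cells and free RNA, 1 point per tumour, with values of 0 at the lower edge; open red triangles give the members of tumour 3 without the lone cell, and open black symbols free RNA. Cpb1 falls from 2595 to 1278 CPM when that cell is left out and still lies above the moderate-enzyme values of 252, 249.7 and 177 CPM.

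Zymogen granule and secretion genes were higher in part, with 6 of 15 tested higher, none lower and a median of 0.46. Spink1, an inhibitor that restrains trypsin inside the granule, stood at 931 and 621 CPM against 210, 0 and 145 CPM (2.20, SE 0.217, adjusted p = 1.45e-19). It did not pass with DESeq2. The granule protein syncollin (Sycn) stood at 615 and 417 CPM against 92.4, 107 and 91.3 CPM (2.44), and at 278 CPM in tumour 3 without the lone cell (2.12). The serpin Serpini2 stood at 87.8 and 232 CPM against 5.6, 0 and 29.0 CPM (3.21), and Cuzd1, a granule membrane protein, at 404 and 656 CPM against 101, 71.3 and 295 CPM (1.43). The secreted scavenger protein Dmbt1 stood at 2494 and 2124 CPM against 986, 606 and 1399 CPM (1.12). In these 5 genes every member value lay above every moderate-enzyme value. Zg16 also passed, with all 32 of its UMIs in tumour 3 in the lone cell and too few UMIs to be tested without it.

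The Reg proteins, secreted lectins that acinar cells make in quantity during inflammation, were abundant in both classes. Reg1 stood at 24924 and 29721 CPM in members against 15332, 13414 and 20194 CPM in moderate-enzyme cells (0.75, SE 0.122, adjusted p = 3.78e-07). Reg2 stood at 7869 and 11705 CPM against 3215, 4638 and 6807 CPM (1.04) and Reg3a at 1440 and 2377 CPM against 871, 1605 and 1620 CPM (0.61, adjusted p = 0.0136). For Reg1 and Reg2 the groups did not overlap, but neither gene passed with DESeq2 or without the tumour block. For Reg3a the member value of tumour 1 lay among the moderate-enzyme values, and Reg3a did not pass without tumour 1 or without tumour 3. Reg3b was at 6341 and 5156 CPM against 3719, 5316 and 5778 CPM (0.32, adjusted p = 0.387). Of the 6 tested, 3 were higher and none lower.

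ER folding genes, which serve the heavy protein export of acinar cells, were higher in 5 of 42 tested genes and lower in none, with a median of 0.42 and 37 of the 42 above 0. The chaperone BiP (Hspa5) stood at 1177 and 1400.0 CPM against 669, 892 and 804 CPM (0.88, SE 0.160, adjusted p = 1.33e-05). Sel1l, which adapts the ER-associated degradation complex, stood at 509 and 444 CPM against 202, 285 and 185 CPM (1.32, adjusted p = 2.2e-06). Both groups were apart in each case, though neither gene passed without tumour 3. Pdia6, P4hb and Ssr3, 2 protein disulphide isomerases and a translocon-associated subunit, passed with smaller differences of 0.74, 0.67 and 0.83 (adjusted p = 0.0451, 0.0356 and 0.0498); Pdia6 did not pass when tumour 1 or tumour 3 was left out, and Ssr3 when any 1 tumour was left out. Of 19 tested genes of the serine, asparagine and Atf4 response none passed in either direction.

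The acinar transcription factors did not pass in either direction (0 of 8 tested, median 0.50, 7 of 8 above 0). Ptf1a was at 123 and 88.8 CPM in members and at 44.8, 71.3 and 66.4 CPM in moderate-enzyme cells (0.78, adjusted p = 0.664). Rbpjl was at 281 and 246 CPM against 210, 107 and 166 CPM (0.56, adjusted p = 0.582), and Nr5a2 at 35.1 and 54.6 CPM against 25.2, 0 and 15.2 CPM (1.45, adjusted p = 0.6). Members lay above moderate-enzyme cells in both tumours for these 3, on 20, 52 and 10 member UMIs. Gata4 was at 52.7 and 54.6 CPM against 44.8, 71.3 and 38.7 CPM (0.44, adjusted p = 0.897), and Bhlha15, the factor MIST1 that matures the secretory machinery, at 17.6 and 20.5 CPM against 22.4, 71.3 and 36.0 CPM (-0.68, adjusted p = 0.897). Bhlha15 was detected in 1 of 31 members of tumour 1 and 3 of 78 of tumour 3. No difference in these factors was detected at this depth, and they may still differ.

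Ductal and foregut transcription factors (0 of 13) and gastric-type genes of ductal tumours (0 of 14) likewise had no call. Krt19, a ductal keratin, was at 878 and 792 CPM against 751, 821 and 1118 CPM (-0.13, adjusted p = 0.9), and Sox9 at 52.7 and 34.1 CPM against 22.4, 0 and 47.0 CPM (0.15, adjusted p = 0.973). Epcam, the protein used in the sort, was at 281 and 423 CPM against 305, 642 and 462 CPM (-0.02, adjusted p = 0.99). Among simple keratins and ductal surface genes only Clu, a secreted chaperone raised in injured acinar cells, passed (1 of 15): it was at 1792 and 1168 CPM against 389, 35.7 and 974 CPM (1.21), and it did not pass without tumour 1. Of 14 injury-type genes Lgals1 alone passed, at 263 and 253 CPM against 61.6, 0 and 127 CPM (1.39), and it did not pass without tumour 1 or without tumour 3.

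Myc, the driver in this model, was at 123 and 41.0 CPM in members and at 58.8, 107 and 45.6 CPM in moderate-enzyme cells (0.45, adjusted p = 0.895). Msi2 was at 0 and 54.6 CPM against 47.6, 0 and 49.8 CPM (-0.16, adjusted p = 0.97). Both rest on few UMIs (13 and 8 in members), and no source used here says whether they count the transgene. Of 36 ribosome biogenesis genes known as MYC targets none passed, with a median of -0.23 and 30 of 36 below 0. Of 77 cytosolic ribosomal protein genes none passed either, with a median of 0.15 and 73 of 77 above 0. Over all genes tested 2712 of 5683 lay above 0, and whether either list shifted as a set was not tested.

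Outside the lists, the tissue kallikrein Klk1, a secreted protease, stood at 1335 and 1161 CPM in members against 479, 963 and 333 CPM in moderate-enzyme cells (1.71, adjusted p = 2.81e-20). Serpini1 and Taf6l were among the other higher genes, neither of which passed without tumour 1 or without tumour 3. The remaining leading genes outside the lists, 2210010C04Rik, Gm2663, Gm10334, Gm5771 and 5430416N02Rik, are trypsinogen-like or uncharacterised genes for which no role is stated here. Without the lone cell 2210010C04Rik had too few UMIs to be tested, and 5430416N02Rik did not pass (adjusted p = 0.0601).

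Genes of cell division were lower in part. Of 43 G2/M genes tested 2 were lower and none higher, with a median of -0.52 and 34 of 43 below 0, whereas none of 36 S phase genes passed (median -0.14). Tubb4b, a tubulin of the spindle, was at 544 and 280.0 CPM in members against 753, 892 and 664 CPM (-0.89, adjusted p = 0.00476). Cks2, which binds the mitotic kinase CDK1, was at 141 and 123 CPM against 274, 642 and 277 CPM (-1.06, adjusted p = 0.038). All member values lay below all moderate-enzyme values for both genes. Outside the lists, the lower genes included Incenp, a centromere protein (1 member UMI against 78, -3.71, adjusted p = 0.0106), Smc2, a condensin subunit (-1.67), the lamin Lmnb1 (-1.32, adjusted p = 0.0202), the heat shock protein Hsph1 (-2.16), Cebpz (-1.28, adjusted p = 0.00563), Tomm5 (-0.89), Fam210a (-3.40) and Gatc, with no member UMI against 60 (at least 3.77-fold lower, adjusted p = 0.0111). The lower calls were the less steady: none of the 16 passed without tumour 3, without the tumour block or with DESeq2, and 5 passed without tumour 1. Hsph1 and Fam210a did not pass without the lone cell (adjusted p = 0.0542 and 0.0514).

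**Figure D4:**
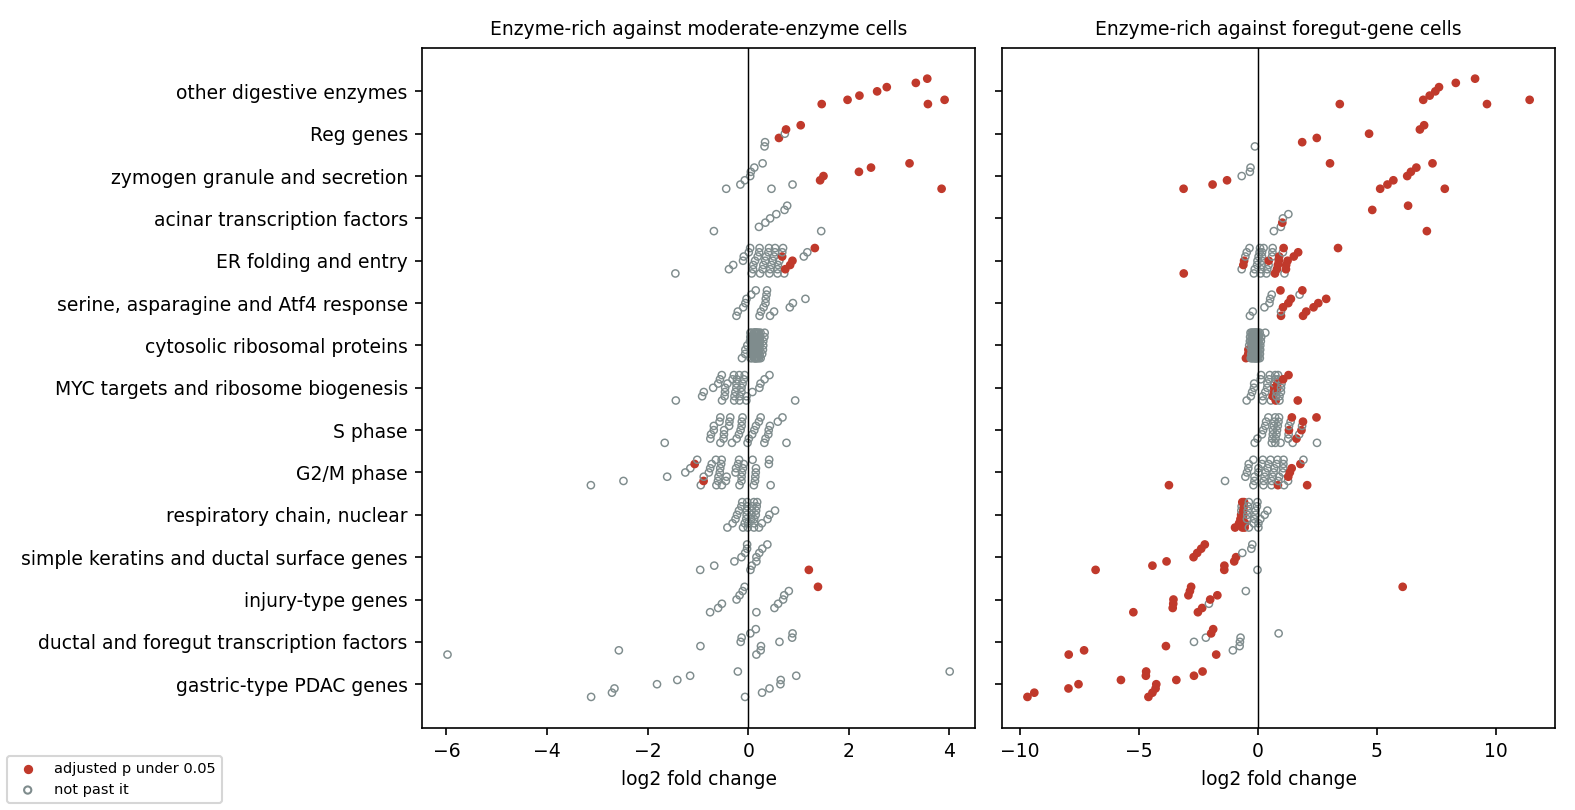
Log2 difference of every tested gene in each gene list between enzyme-rich cells and the class named above each panel; 1 point per gene, filled where it passed the test; points of genes with no UMI in 1 class are fitted values whose size is not bounded by the data. Against moderate-enzyme cells the 9 digestive enzymes (median 2.76) have the highest median of the lists shown and the G2/M genes (median -0.52) the lowest.

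The share of cells with G2/M transcripts gave the same direction by cell. Because depth differed, each cell was read at 800 UMIs outside the gate, where the expected share with 3 or more G2/M UMIs was 56.2% of members in tumour 1 (exact interval 37.3 to 73.9) and 48.9% in tumour 3 (37.4 to 60.5). In moderate-enzyme cells it was 80.7% (74.4 to 86.1), 95.5% and 75.04% (69.9 to 79.7) in tumours 1, 2 and 3, and in foregut-gene cells 35.4%, 27.8% and 24.1%. The members thus lay between the classes in both tumours. They were 24.5 and 26.1 percentage points below moderate-enzyme cells, a mean difference of -25.3 ± 1.13 (SD, n = 2), and no test was made over these 2 values. Unthinned, the shares were 80.6% and 70.5% in members and 95.8%, 100% and 93.6% in moderate-enzyme cells.

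S phase transcripts, at 3 or more UMIs, were expected in 36.0% (19.6 to 55.1) and 24.1% (15.1 to 35.1) of members, in 41.9%, 50.5% and 36.4% of moderate-enzyme cells and in 8.99%, 11.99% and 10.3% of foregut-gene cells. Members were again below moderate-enzyme cells in both tumours and above foregut-gene cells. These shares count transcripts and not dividing cells, and the part of free RNA in them was not tested.

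**Figure D5:**
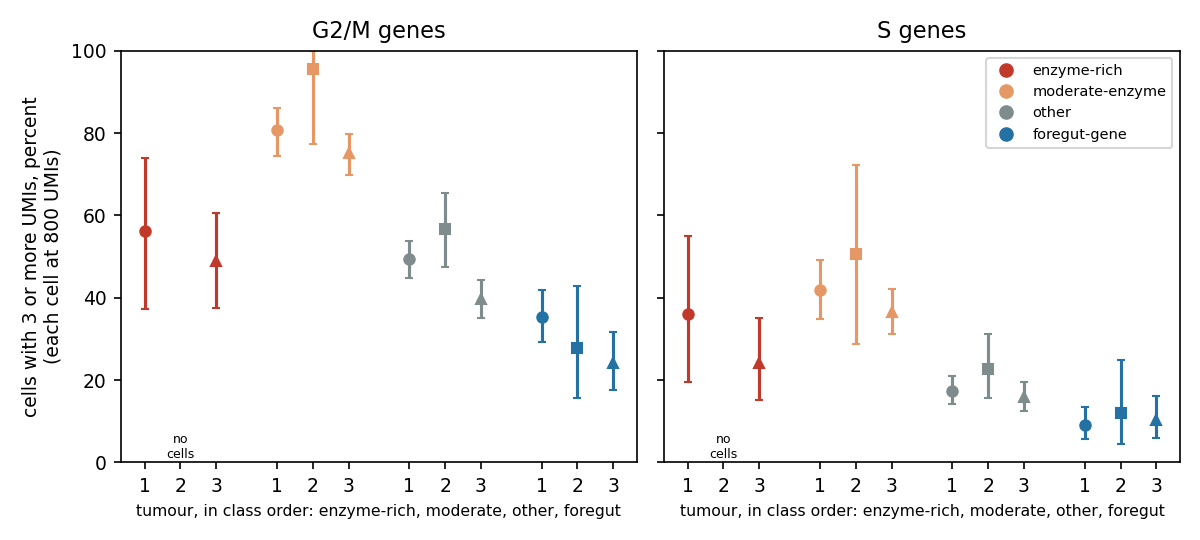
Expected percent of cells with 3 or more UMIs of G2/M (one panel) or S phase genes (the other) when each cell is read at 800 UMIs outside the gate, by class and tumour, with exact 95% binomial intervals for counting error. For G2/M, members at 56.2% and 48.9% lie between moderate-enzyme cells (80.7%, 95.5% and 75.04%) and foregut-gene cells (35.4%, 27.8% and 24.1%).

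Against foregut-gene cells the enzyme-rich cells differed in more of the measured genes. They were higher in all 9 other digestive enzymes tested, in 4 of 8 acinar factors and in 11 of 19 genes of the amino acid response, and lower in all 14 gastric-type genes and in 11 of 15 keratin and ductal surface genes. Most S phase and G2/M genes did not pass. Of the 5683 genes 942 passed (16.6%), 363 higher (6.39%) and 579 lower (10.2%), with a median log2 difference of -0.04. Without tumour 1 530 passed and without tumour 3 240. This comparison uses the same member sums as the one above, and the foregut genes and the enzymes were part of both gates. Genes that go with Tff1, Tff2 and Lgals4 or with the gate enzymes are therefore not independent of how the classes were cut.

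The acinar regulators Rbpjl, Ptf1a and Nr5a2 were at or near 0 in foregut-gene cells, while Xbp1 was present there at a lower level. Rbpjl stood at 281 and 246 CPM in members against 0, 0 and 6.53 CPM in foregut-gene cells of tumours 1, 2 and 3 (6.31, SE 0.592, adjusted p = 3.01e-22), and Ptf1a at 123 and 88.8 CPM against 2.48, 0 and 3.26 CPM (4.81, SE 0.795, adjusted p = 9.34e-08). Nr5a2 had 10 member UMIs and none in foregut-gene cells (at least 11.6-fold higher, adjusted p = 0.000207), and it did not pass without tumour 1. Xbp1, which builds up the secretory ER, stood at 193 and 246 CPM against 112, 48.0 and 97.9 CPM (1.03, adjusted p = 0.00864), and did not pass without tumour 3. These 4 of 8 tested factors were higher and none lower. Bhlha15 (1.29, adjusted p = 0.509) and Gata4 (1.06, adjusted p = 0.267) did not pass.

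The secretory products followed. All 9 tested digestive enzymes were higher, with a median of 7.61: Cpb1 had 4 UMIs in all foregut-gene cells of tumours 1 and 3 (8.32), and Prss3 had none (at least 211-fold higher). Enough UMIs for the test again came in part from classes where these genes are high. The foregut-gene class was also cut at under 1% of enzymes, so the count of 9 describes these genes and is no independent support. Of 15 zymogen granule genes 9 were higher and 3 lower, with Spink1 at 7.86, the ER protein Erp27 at 7.34 and Sycn at 6.66. Of 6 Reg genes 5 were higher and none lower, with Reg2 at 7869 and 11705 CPM against 17.4, 48.0 and 179 CPM (6.81) and Reg1 at 24924 and 29721 CPM against 3532, 3617 and 5642 CPM (2.48). Reg3g, at 948 and 621 CPM against 620.1, 736 and 891 CPM, did not pass (-0.12, adjusted p = 0.747). Klk1 (6.71) and Lgals1 (6.09), both higher than in moderate-enzyme cells too, were here near 0 in the other class.

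Genes of amino acid supply were higher in 11 of 19 tested genes of the serine, asparagine and Atf4 response, with none lower and a median of 1.06. Phgdh, the first enzyme of serine synthesis, stood at 597 and 560.0 CPM against 91.8, 64.0 and 94.6 CPM (2.54, SE 0.247, adjusted p = 7.06e-21). Mthfd2, a mitochondrial folate enzyme, stood at 228 and 116 CPM against 19.8, 48.0 and 19.6 CPM (2.88), and Aldh18a1, of proline synthesis, at 141 and 68.3 CPM against 17.4, 0 and 19.6 CPM (2.34). All member values of these 3 genes lay above all foregut-gene values, and Aldh18a1 did not pass without tumour 1. ER folding genes were higher in 13 of 42 and lower in 3, with Sel1l at 3.37, Hspa5 at 1.51 and Sdf2l1 at 1.70 above and Dnajb9 at -3.11 below.

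Division and growth genes were higher in part: 6 of 36 S phase genes and 6 of 43 G2/M genes, with 1 G2/M gene, Kif23, lower (-3.73, not without tumour 3). Examples were Top2a, which untangles DNA before mitosis (1.43), the cyclin Ccnb1 (2.08) and the replication nuclease Fen1 (1.84), none of which passed without tumour 3. Of 36 ribosome biogenesis genes 9 were higher and none lower, among them the polyamine enzymes Srm (1.29) and Odc1 (1.07, not without tumour 3). Myc itself, at 123 and 41.0 CPM against 47.1, 16.0 and 26.1 CPM, did not pass (0.95, adjusted p = 0.262), nor did Msi2 (-0.82, adjusted p = 0.36). Of 8 tested progenitor genes the intermediate filament Nes (4.21) and Aldh1b1 (4.65), an aldehyde dehydrogenase of pancreatic progenitors, were higher, and the stem cell surface protein Prom1 lower (-2.96); Aldh1b1 did not pass without tumour 3.

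Epithelial and foregut genes were lower. S100a6, a calcium-binding protein of ductal cells, stood at 457 and 328 CPM in members against 12309.9, 10289.98 and 12975 CPM (-5.22), and annexin Anxa2 at 35.1 and 82.0 CPM against 605, 592 and 861 CPM (-3.57). Krt19 stood at 878 and 792 CPM against 4643, 3761 and 5279.9 CPM (-2.69) and Krt8 at 913 and 874 CPM against 3822, 3745 and 3873 CPM (-2.22). Epcam was lower by less, at 281 and 423 CPM against 568, 816 and 822 CPM (-0.99, adjusted p = 5.98e-05), and did not pass without tumour 3. In all 5 genes the groups did not overlap. In counts, 11 of 14 injury-type genes, 11 of 15 keratin and ductal surface genes, 6 of 13 ductal and foregut factors and 14 of 33 nuclear respiratory chain genes were lower.

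All 14 tested gastric-type genes were lower, with a median of -4.64, and the gate fixed part of this. Agr2, a protein disulphide isomerase of mucous cells, Gkn1, a gastric surface protein, and Cldn18, a gastric tight junction protein, had no UMI in members (at least 11.1-, 14.8- and 4.49-fold lower), and Cldn18 did not pass without tumour 1 or without tumour 3. Among transcription factors Foxa1 and Pdx1 had none either (at least 5.54- and 3.34-fold lower), the hepatocyte nuclear factor relative Onecut2 stood at 52.7 and 34.1 CPM against 523, 752 and 581 CPM (-3.86), and the foregut factor Klf5 was lower too (-1.96). Foxa1, Pdx1 and Klf5 did not pass without tumour 3. Pdx1 is kept at a low level by adult acinar cells, and at this depth such a level may go unseen in the members.

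Outside the lists, Bex1, Matn4, Pld4 and Wfdc15b had UMIs in members and none in foregut-gene cells (at least 19.8-, 20.9-, 18.6- and 15.1-fold higher), on 17, 18, 16 and 13 UMIs. The goblet cell protein Clca1, the uterine and gut secretory protein Prap1 and the oxidase Duox2 had none in members (at least 33.7-, 19.7- and 11.8-fold lower). Of 15 immediate early genes 5 were higher and none lower; these genes are known to respond to tissue digestion as well as to growth signals, and that part was not tested. Klf2 stood at 123 and 68.3 CPM against 7.44, 16.0 and 19.6 CPM (2.38), and did not pass without tumour 1. Matn4 did not pass without tumour 3.

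The label was checked against markers of other cell types. Fibroblast and endocrine markers had no UMI in members of either tumour. Mesothelial, erythroid, tuft and Schwann markers had 2 UMIs or fewer, hepatocyte markers 2 and 1, myeloid markers 1 and 2 and endothelial markers 3 and 6. Of the squamous markers, the keratins Krt5, Krt14, Krt15 and Krt6a were at 0. Levels of the other squamous markers (Krt17, Trp63, Dsg3, Col17a1, Ly6d and Sfn) and of the cornified markers are not given here. The squamous check is therefore partial. Of acinar genes that the gate did not read, Cpb1, Spink1, Ptf1a and Rbpjl were present, while lipase and amylase, 1 cell aside, were at lower levels than in free RNA. All members' UMIs of Ctrc and Zg16 in tumour 3 were in that cell too. Bhlha15, detected in only 1 of 31 and 3 of 78 members, lay below moderate-enzyme cells in both tumours, though the difference did not pass. The lymphoid list had 9 and 13 UMIs in members, all of Trbc2, with its other 5 markers at 0. The 7 ductal markers outside the gate summed to 1194 and 1147 CPM in members and to 1598, 1355 and 1358 CPM in free RNA. Krt19 stood at 878 and 792 CPM in members and at 1077, 932 and 929.8 CPM in free RNA. Neither level was above that of free RNA. Free RNA is only a part of a cell's UMIs, and how large a part was not measured. Whether the members make these ductal RNAs themselves was therefore not tested.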

How the data were processed

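Single-cell RNA was measured in 3 tumours, 1 library each. The deposited tables hold raw, unscaled UMI counts for each barcode; the submitters' processing notes name Cell Ranger 3, Seurat 3.1 and mm10, and kits of Version 1 and of Version 3 appear in the labels. No cell annotation was used. Cells were barcodes with 1000 to under 5000 UMIs, 500 or more genes, at most 20% mitochondrial UMIs, 60% or more of the barcode's UMIs over the 3 libraries in 1 library, and at most 10% ribosomal RNA locus UMIs; the gates are given above. The members, gene lists and rules were chosen with earlier results of these data known. Doublets were scored with scrublet (scanpy 1.11.5) and kept.

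Counts outside the 13 gate genes were summed per tumour and class where 20 or more cells were present, which gave 28031 to 961638 UMIs per sum. edgeR 4.0.16 (R 4.3.3; filterByExpr, TMM, glmQLFTest, 5 residual degrees of freedom, common biological coefficient of variation 0.0835) gave log2 differences, standard errors and adjusted p-values, after a check on simulated counts; those printed without an adjusted p passed at 0.05 unless said otherwise. Classes of a tumour come from 1 animal, so the tumour was a block: deviations from class means correlated at 0.105 on average over 15 same-tumour pairs (0.0099 to 0.294) and at -0.052 over other pairs. A count of 0 is read as up to 3 counts over the group, and intervals are 95% (Clopper-Pearson or exact Poisson). The genes named were, per list and comparison, up to 4 called genes with the largest difference of the same sign in both tumours, 8 outside the lists in each direction, and fixed factors; Pnlip, Amy1, Zg16, Ctrc, Cela1, Ctrl, Rnase1, Pnliprp2, Try10, Cuzd1, Dmbt1, P4hb, Reg3b, Reg3g and Krt8 were named after their values were seen. The labels do not say whether the tumours share a donor. The p-values rest on a spread estimated over all classes of these tumours and shared in part across genes. The result of 1 further enzyme gene is not reported here. Coordinates are those of mm10 annotation.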

Additional observations from a re-analysis of the deposited data

Results flagged for a closer look

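The members' barcodes carried RNA in the other libraries too, in data that no comparison used. Read in library 2, the barcodes of the 31 tumour 1 members held 7.48% of their UMIs in the 10 gate enzymes, and in library 3 they held 6.94%. The barcodes of the 78 tumour 3 members held 7.10% in library 1 and 7.58% in library 2. Free RNA held 0.625%, 0.502% and 0.831%, so these copies lay near their home values of 7.89% and 7.85% and far above the background.

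Barcodes with 10 or more UMIs of Pnlip and Amy1 together, which the classified cells other than 1 lacked, occurred among barcodes outside the classes: 3 in library 2 and 10 in library 3. All 10 of library 3 failed the limit on ribosomal RNA locus UMIs. In library 2, 2 failed that limit and 1 the home-library requirement. Their median gate enzyme shares were 7.04% and 5.07%.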

How the results depend on the processing

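Against moderate-enzyme cells, the count of 67 called genes moved with several choices: 20 without the replicate block that pairs sums by tumour, 42 with the enzyme threshold at 3%, 23 with DESeq2, and 20 to 62 when 1 tumour was left out. Against foregut-gene cells the 942 calls became 1717 at the 3% threshold, 586 with DESeq2 and 240 to 928 when 1 tumour was left out, while the fit without the block moved that count by less than 1.5 times. In the moderate-enzyme comparison the split of higher against lower calls, 51 to 16, became 20 to 0 without the block, 23 to 0 with DESeq2, 30 to 5 without tumour 1 and 20 to 0 without tumour 3; where sums or cells were left out the fit had fewer samples, and otherwise the cause was not tested. The mean share of enzyme-rich cells was 10.3% at the 3% threshold and 1.83% without the ribosomal RNA locus limit, where that of tumour 3 was 3.24% and not 7.82%. At a threshold of 10% only 6, 0 and 11 cells remained, and no gene test was run. The G2/M difference of -25.3 percentage points was -19.1 without thinning, -23.5 at 2 or more UMIs and -21.5 at 5 or more.

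Of 25 genes named as higher than in moderate-enzyme cells, 7 passed in every alternative that gave a value (Gm10334, Gm5771, Klk1, Prss3, Serpini2, Sycn and Zg16); Zg16 could not be tested without the lone cell. None of the 10 named lower genes did. Against foregut-gene cells, 27 of 54 higher and 17 of 36 lower genes did. Values with a changed sign belonged to genes that did not pass there. For Epcam the log2 difference was 0.017 with RLE size factors, 0.048 with 50 or more cells per sum and 0.0025 with DESeq2. Krt19 was at 0.0033 without the replicate block and at -0.34 to 0.23 when 1 tumour was left out. Msi2 was at 0.40 with 50 or more cells per sum and -6.58 to 0.37 when 1 tumour was left out, Myc at -0.021 and -0.059 to 1.04, and Sox9 at -0.34 and -0.25 to 1.51, with -0.087 at the 3% threshold. Tomm5 was at 0.039 at that threshold. Btg2, against foregut-gene cells, was at -0.014 to 0.89 when 1 tumour was left out.

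The enzyme-rich sums hold 56933 and 146427 UMIs outside the gate, from 31 and 78 cells of 2 tumours, with none in tumour 2; the smallest sum of all is that of moderate-enzyme cells of tumour 2, with 28031. Genes of low level, the transcription factors among them, can therefore differ without being called. Leaving out tumour 1 or tumour 3 leaves a single enzyme-rich sum, which is then taken to vary like the other classes.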

Other observations

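Some values belong to no comparison above, and the genes were singled out after their values were seen. Nupr1, a stress-induced chromatin protein of acinar cells, stood at 2441 and 1659.5 CPM in enzyme-rich cells of tumours 1 and 3 and at 571, 321 and 699 CPM in moderate-enzyme cells of tumours 1, 2 and 3 (edgeR log2 difference 1.68, SE 0.156, adjusted p = 7.57e-22). The lysosomal protease cathepsin L (Ctsl), which can degrade trypsinogen, stood at 2459 and 2438 CPM against 1067, 1498 and 1558 CPM (0.91, adjusted p = 2.7e-07). In both genes every enzyme-rich value lay above every moderate-enzyme value.

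Trbc2, a T-cell receptor constant gene on the lymphoid marker list, had 9 and 13 UMIs in enzyme-rich cells (158 and 88.8 CPM), while the other 5 lymphoid markers were at 0. Moderate-enzyme cells held 92.4, 0 and 96.8 CPM of it. In the mm10 annotation Trbc2 (chr6:41546730-41548352) lies just after the trypsinogen Prss2 (chr6:41521787-41525079) on the same strand; whether trypsinogen reads entered its count was not tested.

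Barcodes of 5000 UMIs or more, which the cell filter left out, met the enzyme gate in 1 case in tumour 1, 0 in tumour 2 and 13 in tumour 3.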
